A study of Mus musculus with 20 samples.

Results

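The comparison concerns the livers of mice that lack both liver X receptors (LXR alpha, gene Nr1h3, and LXR beta, gene Nr1h2) and of wild-type mice, all kept on a Western diet. It was formed from the titles and genotype labels of the arrays, and holds 10 of the 20 mice in the series: 5 LXR knockout and 5 wild-type animals. The other 10 mice, 5 of each genotype, were on a normal chow diet. Their arrays enter the estimate of spread behind every test, the signal filter and the choice of probe. Beyond that they are used only where the genotype difference on Western diet is set against that on chow. All animals were male, 28 weeks old and of a mixed Sv129/C57Bl6J background, and had received their diet for 7 weeks. The knockout affects both receptors in every tissue and from conception, so a difference in the liver need not arise from LXR in liver cells, and nothing in the labels ties wild-type to knockout mice by litter. One piece of a single liver lobe per mouse gave total RNA for 1 single-colour Agilent array, so each value describes a mixture of cells, in which fewer cells of a type and less RNA per cell cannot be told apart. Adjusted p-values measure the spread between the 20 mice of the series only.

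LXRs are nuclear receptors that are activated by oxidised derivatives of cholesterol and bind DNA together with retinoid X receptors. In liver they are known for inducing Srebf1, which drives fatty acid synthesis, and the transporters that send cholesterol into bile. In macrophages they are known for promoting cholesterol export and for restraining inflammatory genes. A Western diet supplies cholesterol and fat, and so raises the supply of LXR ligands.

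Levels are given throughout as the log2 processed signal of a probe minus the 75th percentile of its array, so 0 is that percentile and 1 unit is a 2-fold step. A difference is the knockout mean minus the wild-type mean with its standard error from limma, and a gene is called when its Benjamini-Hochberg adjusted p is under 0.05. The 75th percentile of the arrays lay at a signal of 261 to 331 in wild-type and 340 to 435 in knockout mice, and 56.0 to 64.0% and 60.1 to 67.1% of probes were well above background. Each array correlated with the others of its group at a median r of 0.969 to 0.981. Alb, Fgb, Ahsg and other abundant products of hepatocytes saturated the scanner in all 10 mice, so the defining markers of the labelled tissue were present. In all, 29 tested genes were saturated on every array of both groups. Their differences, -0.48 to -0.35, lay close to the -0.39 by which the scaling differs between the groups, and 22 of them were called lower; they carry no order between the genotypes and are left out of the list counts below where a list holds any.

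The targeted genes were examined first. Nr1h3 had levels of 4.33, 3.82, 4.20, 4.68 and 4.42 in wild-type mice 1 to 5 and of -4.55, -5.44, -4.39, -3.74 and -5.42 in knockout mice 1 to 5. The groups lay far apart, with a difference of -9.00 ± 0.29, adjusted p = 1.67e-13, or 511-fold. For Nr1h2 the levels were 0.78, 0.63, 0.60, 0.82 and 0.63 in wild-type and -5.28, -4.76, -4.81, -3.57 and -5.25 in knockout livers. That difference was -5.43 ± 0.31, adjusted p = 1.5e-10. Every knockout array therefore carried the loss of both receptor transcripts. On chow the differences were -9.05 for Nr1h3 and -5.39 for Nr1h2. With the background corrected by normexp in place of the scanner software's method, the Western diet differences were -5.64 and -2.69. The size of these folds therefore depends on the background method.

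Because LXR acts by binding to gene promoters, the promoters of its listed targets were compared before the values are described. Each window of the Srebf1 promoter made of 5 bases, 4 free bases and 6 bases was looked for on both strands in the 250 bases before each RefSeq transcript start of the GRCm38.p6 assembly. Of 1397 windows, 4 also occurred in at least 2 other genes of the list of LXR targets, 14 of whose 20 genes have a promoter in the table. In 3 of these windows, which overlap, the other genes were Abca1 and Fasn, and the one found in fewest promoters read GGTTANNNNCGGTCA, in which N is any base. It occurred in 4 of 32851 promoters (0.0122%), those of Srebf1, Abca1, Fasn and Prrg4. The shape of the windows was set after the known LXR element of Srebf1 had been found in these promoters, and the window was chosen for being shared with listed genes, so its presence at Abca1 and Fasn is given by that choice and counts for nothing. The remaining window, CGGGGNNNNGCGGGG, was shared with Arl4c and Lpcat3 and occurred in 242 promoters (0.737%). The stretches are shown in the direction of transcription, with the match in capitals, which reads as the reverse complement of the letters above.
Srebf1, chr11:60210624-60210668, minus strand: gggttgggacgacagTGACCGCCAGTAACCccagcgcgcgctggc
Abca1, chr4:53159933-53159977, minus strand: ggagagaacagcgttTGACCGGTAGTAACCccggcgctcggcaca
Fasn, chr11:120824743-120824787, minus strand: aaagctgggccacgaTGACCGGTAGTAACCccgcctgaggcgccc
Prrg4, chr2:104849888-104849932, minus strand: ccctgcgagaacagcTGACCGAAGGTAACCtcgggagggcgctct
The matches begin 182 bases before the start of Srebf1, 67 before Abca1, 225 before Fasn and 67 before Prrg4. Srebf1, Abca1 and Fasn were lower in the knockout, with values given below, while Prrg4, which is no listed LXR target, had a difference of -0.35 that was not called (adjusted p = 0.547). Of the listed genes that share the remaining window with Srebf1, Lpcat3 was lower (-1.40) and Arl4c higher (2.88). A match is a string of letters and does not show that LXR binds there.

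On Western diet 10128 of 17545 tested genes (57.7%) were called between the genotypes. Of all tested genes, 25% were higher and 32.7% lower in the knockout. Among genes called and at least 2-fold apart, 2861 (16.3%) were higher and 1995 (11.4%) lower, so the larger differences lay more often on the higher side. The excess was greater at 8-fold, which 656 genes passed upward and 190 downward. However, 515 genes called higher were below background on every wild-type array, and 100 called lower were so on every knockout array. How far such dim signals enter the 8-fold counts was not tested. Over all tested genes the median difference was -0.16 and the quartiles were -0.62 and 0.48. Among 17195 genes measured on all 10 arrays, 3315 (19.3%) had every knockout mouse above every wild-type mouse and 3916 (22.8%) every knockout mouse below. With so many genes called, a list is described by how far its counts and its median depart from these shares.

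**Figure D1:**
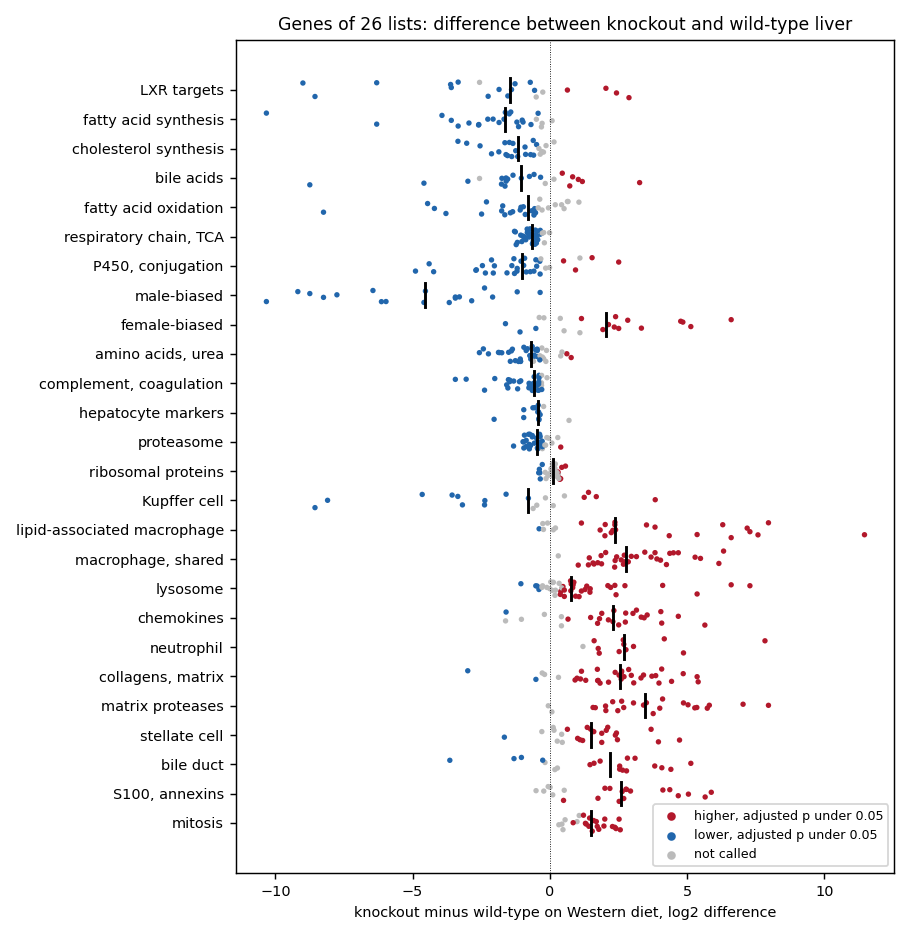
Difference between knockout and wild-type liver on Western diet (log2, horizontal axis) for each tested gene of 26 lists, 1 point a gene, red where called higher, blue where called lower and grey where not called; black bars mark list medians. The male-biased genes lie furthest to the left (median -4.53) and the matrix proteases furthest to the right (median 3.46).

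The genes of fatty acid synthesis were lower in the knockout. Of 25 tested genes of synthesis, desaturation and elongation, 21 fell and none rose, with a median of -1.62. Srebf1, the transcription factor that switches these enzymes on, had levels of 7.08, 6.12, 5.85, 7.27 and 7.06 in the wild-type mice. In the knockout mice Srebf1 lay at 3.18, 3.48, 3.24, 3.15 and 3.62. All 5 knockout values lay below all wild-type ones, and the difference of -3.34 ± 0.23 is 10.1-fold (adjusted p = 1.83e-09). Scd1, the desaturase that makes oleic from stearic acid, was at 8.06, 7.87, 7.78, 8.02 and 8.03 in wild-type livers, where 4 of 5 spots were saturated. Its knockout levels were 2.91, 1.98, 1.17, 1.36 and 0.79, so the 79.2-fold gap (difference -6.31 ± 0.44, adjusted p = 1.87e-09) is measured from a ceiling. Fasn, which assembles palmitate, was measured on 3 arrays of each group after outlier spots were left out. Those Fasn values were 7.80, 6.06 and 6.85 against 3.94, 3.23 and 2.77, a difference of -3.59 ± 0.48, adjusted p = 0.000131. A second Fasn probe differed by -4.15. Me1, the malic enzyme that supplies NADPH for synthesis, ranged over 2.51 to 3.76 in wild-type and -1.84 to -0.04 in knockout livers (difference -3.93 ± 0.48, adjusted p = 1.48e-06), and its second probe differed by -1.78. Elovl3, an elongase of very long fatty acids, spread widely among the knockouts, at 1.31, -6.99, -6.18, -6.80 and -7.26, against 4.73 to 5.52 in wild-type mice. Knockout mouse 1 kept an Elovl3 signal well above background and the other four did not; the difference was -10.33 ± 1.20, adjusted p = 8.36e-07.

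The transporters and other direct LXR targets did not move as 1 group. On the list of LXR targets, which includes the deleted Nr1h3, 13 of 20 genes were lower, 4 were higher and 3 were not called. Abcg5 and Abcg8 form the heterodimer that pumps cholesterol into bile. Abcg8 stood at 2.20, 1.87, 1.96, 2.66 and 2.66 in the wild-type and at -0.57, -2.17, -1.52, -0.79 and -1.67 in the knockout mice, without overlap, and fell 12.3-fold (difference -3.62 ± 0.29, adjusted p = 1.15e-08). Abcg5, with 4 wild-type values of 6.49, 6.31, 7.24 and 6.83 and 3 knockout values of 3.98, 4.44 and 4.99, fell 4.75-fold (difference -2.25 ± 0.36, adjusted p = 0.000164). Lpcat3, which puts polyunsaturated acyl chains into phospholipids, was lower as well (-1.40 ± 0.16, adjusted p = 7.17e-07).

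Abca1, the exporter that loads cholesterol onto apolipoprotein A-I, was lower by a small step. Its levels were 4.08, 3.56, 4.01, 3.95 and 4.05 in wild-type and 3.25, 3.22, 3.13, 3.42 and 3.07 in knockout mice. The groups did not overlap, although wild-type mouse 2 lay well below the others of its group, and the difference was -0.71 ± 0.13, adjusted p = 0.000128. The call is lost when the background is corrected with normexp in place of the scanner software's method (-0.49, adjusted p = 0.225). Mylip, the ubiquitin ligase that degrades the LDL receptor, differed by -0.56 ± 0.19, adjusted p = 0.0204, a call that is lost under normexp and without wild-type mouse 2 (-0.46, adjusted p = 0.0612) or knockout mouse 4 (-0.49, adjusted p = 0.0504).

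Abcg1 and Arl4c were higher in the knockout although both are listed LXR targets. Abcg1, which exports cholesterol to HDL and is abundant in macrophages, read 0.93, 0.73, -0.32, 0.36 and -0.22 in wild-type livers. Every knockout liver was higher, at 2.73, 2.82, 2.85, 2.64 and 2.58 (difference 2.43 ± 0.29, adjusted p = 1.06e-06). Arl4c, a small GTPase of cholesterol export, went from -0.18 ± 0.52 in wild-type to 2.71 ± 0.39 in knockout mice (mean ± SD, n = 5 each; adjusted p = 1.34e-07), and its second probe differed by 1.37. Macrophage genes, described further on, rose in the same mice, and their part in these values was not tested. Pltp, Lpl and Cyp7a1 were not called. Pltp, the phospholipid transfer protein, differed by -0.50 ± 0.44, adjusted p = 0.353 and Lpl, lipoprotein lipase, by -0.26 ± 0.32, adjusted p = 0.514.

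Cyp7a1, the rate-limiting enzyme of bile acid synthesis, spread widely in both groups. Its wild-type levels were -1.51, -7.12, -2.10, 0.40 and -3.03 and its knockout levels -2.90, -6.33, -7.34, -3.29 and -6.30. The groups overlapped, and the difference of -2.56 ± 1.13, adjusted p = 0.0595 missed the threshold. It passed with median scaling (-2.65, adjusted p = 0.0499) and with the mean over probes (-2.47, adjusted p = 0.0198). It also passed without wild-type mouse 2 (-3.67, adjusted p = 0.0028), knockout mouse 1 (-3.14, adjusted p = 0.0281) or knockout mouse 4 (-3.05, adjusted p = 0.034). A second Cyp7a1 probe differed by -2.39 and was called lower.

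**Figure D2:**
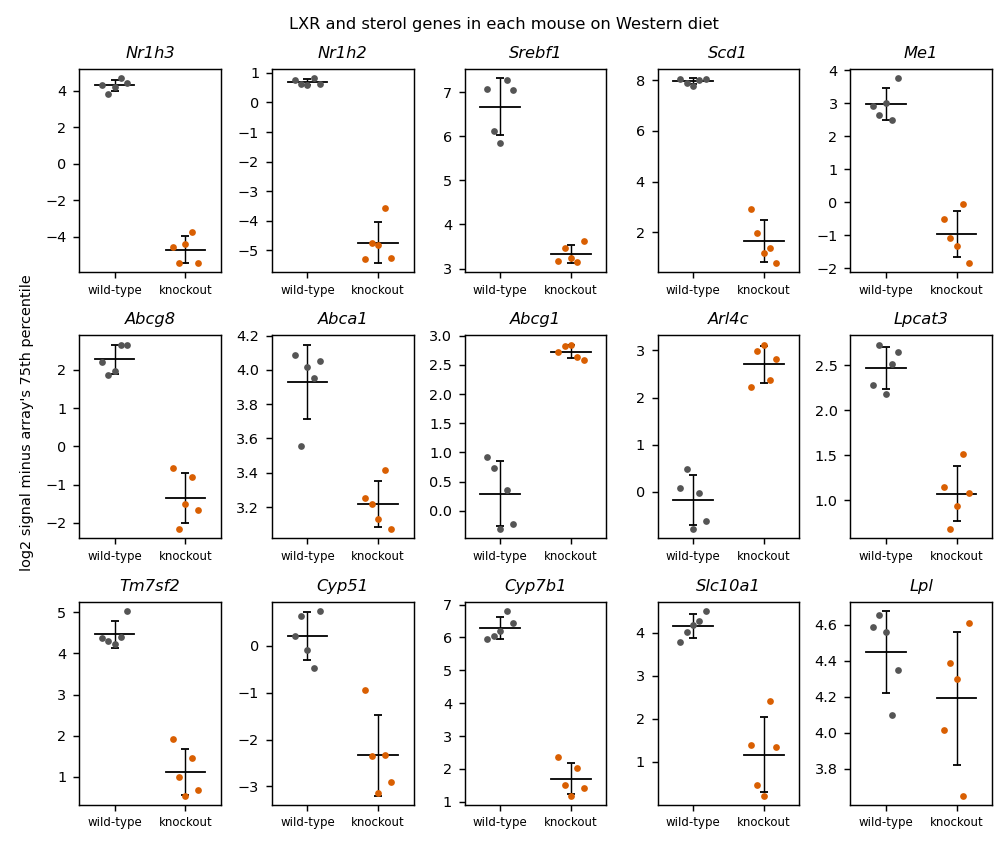
Levels of 15 LXR and sterol genes in each mouse on Western diet (log2 signal minus the array's 75th percentile, vertical axes), with 5 wild-type mice in grey and 5 knockout mice in orange; lines are means and bars SD. In 14 of the 15 panels the groups do not overlap, and Lpl is the exception; Abcg1 and Arl4c are the 2 genes that are higher in the knockout.

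Cholesterol synthesis and uptake genes were also lower. SREBP-2 is known to induce this pathway when cell sterol is low, and the pathway shuts down when sterol accumulates. Of 25 tested genes 19 fell, none rose, and the median was -1.17. In 6 of 22 fully measured genes every knockout mouse lay below every wild-type mouse. That is near the 22.8% of all fully measured genes, so this count is no result about the list. Tm7sf2, a sterol reductase, had levels of 4.38, 4.30, 4.23, 4.41 and 5.04 in wild-type and of 1.92, 0.99, 0.55, 1.46 and 0.69 in knockout livers (difference -3.35 ± 0.22, adjusted p = 1.1e-09). Cyp51, which removes a methyl group from lanosterol, ranged from -0.48 to 0.75 in wild-type and from -3.15 to -0.94 in knockout livers (difference -2.54 ± 0.32, adjusted p = 2.15e-06). Insig1, which holds the SREBP complex in the endoplasmic reticulum, had levels of 1.17, 1.08, -1.08, 0.27 and 0.82 against -0.57, -1.44, -2.65, -2.13 and -1.57. Wild-type mouse 3, the lowest of its group, fell among the knockout values of Insig1, whose difference was -2.12 ± 0.39, adjusted p = 0.000128.

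This pathway went the other way on chow. There 11 of the 25 genes were higher in the knockout and none lower, with a median of 0.66, beside 11.3% of all genes called higher and 8.39% lower. Cyp51 differed by 1.18, adjusted p = 0.0135 on chow. The difference between the diets in the genotype effect was called for 22 of the 25 genes, all toward the lower side on Western diet, beside 14.7% of all tested genes.

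Genes of sterol storage and of oxysterol formation went both ways. In the list of sterol esterification and transport, 9 of 20 genes were higher and 8 lower. Osbpl3, an oxysterol-binding protein, showed the greatest rise, from -3.58, -3.84, -4.55, -4.00 and -5.39 in wild-type to 0.94, 1.75, 1.89, 1.31 and 1.49 in knockout mice. The gap of 5.75 ± 0.33 exceeds the whole range within either group (adjusted p = 2.03e-10). Soat1, which esterifies cholesterol in macrophages and many other cells, rose 19.6-fold (4.29 ± 0.29, adjusted p = 1.58e-09). Ch25h, which makes 25-hydroxycholesterol, an LXR ligand, rose by 4.40 ± 0.38, adjusted p = 2.11e-08, from a wild-type level that was well above background on 2 of 5 arrays. Cyp27a1, which makes 27-hydroxycholesterol and also acts in bile acid synthesis, fell from 3.35 ± 0.19 to 1.60 ± 0.41 (SD, n = 5 each; adjusted p = 1.06e-07).

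Genes of bile acid handling fell on balance. Of 23 tested genes, 14 were lower and 6 higher, with a median of -1.04. Cyp7b1, of the alternative pathway of synthesis, read 5.94, 6.04, 6.21, 6.81 and 6.43 in wild-type and 2.36, 1.51, 1.19, 2.02 and 1.43 in knockout livers. This is a 24.0-fold fall (-4.59 ± 0.23, adjusted p = 3.22e-11), and Cyp7b1 is also a gene of male liver. Slco1a1, an organic anion transporter that is likewise male-biased, differed by -8.74 ± 0.69, adjusted p = 7.88e-09, with a knockout level above background on 1 of 5 arrays. Slc10a1, the main importer of bile salts from blood, fell 7.92-fold (-2.99 ± 0.31, adjusted p = 1.87e-07). Slc27a5, which activates bile acids before conjugation, fell by 1.76 ± 0.15, adjusted p = 1.54e-08. The genes that rose include exporters of the blood-facing membrane: Abcc4 went from -2.95 ± 0.29 to 0.32 ± 0.21 (SD, n = 5 each; adjusted p = 5.81e-11), and Slc51b, a subunit of the organic solute transporter, rose by 1.18 ± 0.36, adjusted p = 0.00941.

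Of 25 lipid droplet genes 8 were higher and 9 lower, near the shares of all tested genes (25% and 32.7%), so the count is no result about the list. Single members stood far apart. Cidec, a droplet-coating protein that enlarges droplets, had levels of -1.04, -0.51, -0.82, -0.82 and -1.61 in wild-type and 1.58, 3.31, 2.58, 2.16 and 3.18 in knockout mice. The groups were fully apart, with a difference of 3.52 ± 0.35, adjusted p = 1.52e-07. Its relative Cidea rose 10.4-fold (3.38 ± 0.48, adjusted p = 9.91e-06). Pparg, a nuclear receptor that induces both, rose by 2.50 ± 0.24, adjusted p = 8.93e-08, and Cd36, a fatty acid importer, by 2.40 ± 0.37, adjusted p = 2.4e-05. On chow the Cidec difference was -0.03, adjusted p = 0.969, and the diets differed (3.55, adjusted p = 5.46e-05).

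Fatty acid oxidation genes, many of them targets of PPAR alpha, were lower in 20 of 30 cases and higher in none (median -0.79). Cyp4a10, an omega-hydroxylase of fatty acids, stood at 4.21 to 4.50 in wild-type and -0.75 to 0.53 in knockout livers (difference -4.45 ± 0.25, adjusted p = 1e-10). Its 2 other probes differed by -2.29 and -1.71. Acot1, a cytosolic thioesterase, fell by 3.79 ± 0.49, adjusted p = 3.81e-06.

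Respiratory chain and TCA cycle genes were lower by smaller steps. Without the saturated Cox6a1, 35 of 39 were called lower and none higher, with a median of -0.67. Ndufa10, a subunit of complex I, had levels of 3.97, 3.88, 3.81, 4.14 and 3.97 in wild-type and 2.74, 2.39, 2.47, 3.07 and 2.98 in knockout mice (difference -1.23 ± 0.14, adjusted p = 8.01e-07). Sdha, of complex II, differed by -1.29, but of 2 further Sdha probes 1 was called higher by 0.83. Proteasome subunits showed the same kind of shift, with 26 of 35 lower, 1 higher and a median of -0.45. Psma4 differed by -1.32 ± 0.12, adjusted p = 6.6e-08 and Psmb7 by -0.95 ± 0.10, adjusted p = 3.02e-07. Differences of this size depend on scaling. With quantile normalization 22 respiratory and TCA genes were lower and 1 higher, at a median of -0.36, and 17 proteasome genes lower and 2 higher, at a median of -0.20. After normexp 7 were lower on each list.

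Ribosomal protein genes were nearer to 0, with 6 of 32 unsaturated genes higher, 3 lower and a median of 0.13. Their count turned on scaling, since quantile normalization called 26 of the full list higher and none lower.

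Products of hepatocytes were the next group. Of 15 tested hepatocyte markers 7 were saturated in both groups, and 6 of the other 8 were lower (median -0.58). Ttr, the thyroxine carrier transthyretin, fell most, from 4.58, 4.21, 4.63, 4.59 and 4.59 in wild-type to 2.68, 2.44, 1.82, 3.14 and 2.36 in knockout mice. The difference was -2.03 ± 0.18, adjusted p = 2.6e-08. Asgr2, a subunit of the asialoglycoprotein receptor, differed by -0.95 ± 0.12, adjusted p = 2.02e-06, or by -0.57 with quantile normalization. The latter normalization called 3 of the 15 markers lower and 1 higher, at a median of 0.01, so no direction is given for the markers as a group.

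Transcription factors of the hepatocyte were lower in 11 of 22 cases and higher in 5, but 9 were lower and 7 higher with quantile normalization and 2 lower and 3 higher after normexp, so no direction is given for the list. Hnf4a, the nuclear receptor that maintains hepatocyte genes, had levels of 3.46, 3.33, 3.99, 3.80 and 3.72 against 3.01, 2.27, 2.72, 2.93 and 2.60. Its difference of -0.95 (adjusted p = 0.000102) was not called under normexp (-0.71, adjusted p = 0.0719). Cebpa fell by 1.37 ± 0.26, adjusted p = 0.000196.

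Complement and coagulation factors that the liver secretes were lower in 31 of 36 unsaturated cases and higher in none, at a median of -0.65. C8b, a subunit of the membrane attack complex, stood at 4.79, 4.75, 4.42, 5.05 and 4.50 in wild-type and at 1.84, 0.65, 0.30, 2.33 and 1.18 in knockout livers. Its groups lay apart by -3.44 ± 0.33, adjusted p = 9.52e-08. C9, the pore-forming subunit, fell 8.27-fold (-3.05 ± 0.23, adjusted p = 4.82e-09), and Klkb1, plasma prekallikrein, fell by 2.01 ± 0.24, adjusted p = 1e-06. Over the list of 40 genes, quantile normalization called 18 and normexp 13, all lower.

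Amino acid breakdown and urea cycle enzymes fell in 30 of 41 cases and rose in 2, with a median of -0.69. Tdo2, the first enzyme of tryptophan breakdown, had levels of 5.36, 5.24, 5.73, 5.92 and 6.13 in wild-type and 4.08, 2.36, 2.11, 4.21 and 2.79 in knockout mice (difference -2.57 ± 0.33, adjusted p = 2.89e-06). Kmo, further along that pathway, fell by 2.42 ± 0.23, adjusted p = 7.25e-08, and Cbs, which makes cystathionine from homocysteine, fell by 2.24 ± 0.17, adjusted p = 4.73e-09. Gpt, alanine aminotransferase, rose by 0.62 ± 0.14, adjusted p = 0.000832, a call that median scaling does not keep (0.53, adjusted p = 0.0526).

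Genes of glucose metabolism included large differences in both directions. G6pc, which releases glucose from glucose 6-phosphate in hepatocytes, read 6.60, 6.70, 6.12, 7.14 and 5.91 in wild-type and 3.14, 4.38, 2.92, 3.89 and 3.86 in knockout livers and fell 7.23-fold (adjusted p = 5.25e-07). Pygl, liver glycogen phosphorylase, fell by 1.81 ± 0.14, adjusted p = 7.12e-09. Pkm, the pyruvate kinase of most tissues other than liver, rose from -0.36, -0.97, -1.59, -1.04 and -1.53 to 2.19, 2.76, 2.96, 1.93 and 2.26. Its difference was 3.52 ± 0.27, adjusted p = 5.85e-09, and Hk3, a hexokinase of white blood cells, rose by 3.29 ± 0.33, adjusted p = 1.67e-07. Over the list 11 of 30 unsaturated genes were higher and 10 lower, near the shares of all tested genes. The full list gave 13 higher and 7 lower with quantile normalization and 8 and 4 after normexp.

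Among apolipoproteins and lipoprotein enzymes 17 of 27 unsaturated genes were lower and 3 higher, though quantile normalization called 8 lower and 6 higher of the full list. Lipc, hepatic lipase, fell 6.60-fold (-2.72 ± 0.23, adjusted p = 1.9e-08). Apoa4, an apolipoprotein of chylomicrons and HDL, rose from 3.75 ± 0.35 to 5.82 ± 0.47 (SD, n = 5 each; adjusted p = 2.87e-05).

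Genes that mark male mouse liver showed the deepest fall of any list. Pulsed growth hormone in males is known to maintain them through STAT5b, and steadier secretion in females maintains another set. All 18 unsaturated male-biased genes fell, at a median of -4.56. Hsd3b5, a steroid-reducing enzyme of male liver, had levels of 5.04, 4.44, 5.49, 5.31 and 5.82 in wild-type mice. In the knockout mice it lay at -0.90, -4.10, -5.61, -5.15 and -4.05, and the fall was 580.2-fold (-9.18 ± 0.64, adjusted p = 1.81e-09). The Hsd3b5 difference was as small as -6.55 when the processing or the set of mice was changed. Cyp4a12b, a hydroxylase of arachidonic acid, fell from 4.85 ± 0.14 to -2.90 ± 1.83 (SD, n = 5 each; adjusted p = 3.34e-09). Knockout mice 1 and 4 kept the highest Cyp4a12b levels of their group, at -1.11 and -0.80, and were still well below the wild-type mice. Hsd3b4, outside the list but among the most lowered genes, differed by -7.30 ± 0.40, adjusted p = 1.01e-10. Hsd3b4, Hsd3b5, the Cyp4a and the Cyp3a genes belong to families of near-identical copies, so a probe may read more than its own gene.

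Female-biased genes gave a divided picture. Of 19 unsaturated genes 12 rose and 3 fell, at a median of 2.14. Of the 20 genes tested, 6 were below background on every wild-type array, and with such genes at their bounds the median over the 20 was 1.29. The list was raised on chow as well, with 14 of 20 genes higher, 2 lower and a median of 1.84. Abcd2, a peroxisomal transporter of fatty acyl-CoA, was at least 7.87-fold higher (mean level -7.04 ± 0.13 in wild-type and -2.19 ± 0.61 in knockout mice, adjusted p = 5.26e-10). The Abcd2 call does not hold under normexp (0.41, adjusted p = 0.493). Cyp3a16 fell on Western diet, from 7.22, 7.42, 7.42, 6.42 and 6.81 to 5.59, 5.43, 5.33, 5.99 and 4.86, with 1 wild-type spot saturated. Its difference was -1.62 ± 0.32, adjusted p = 0.000324 here and 1.88, adjusted p = 0.000425 on chow, where it was higher in the knockout.

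The growth hormone axis held members that fell and members that rose. Ghr, the growth hormone receptor, had 4 wild-type values of 5.08, 4.87, 5.22 and 5.48 and knockout values of 3.90, 3.44, 2.89, 4.13 and 3.19 (difference -1.65 ± 0.21, adjusted p = 3.93e-06). The 4 other Ghr probes were all called lower, at -2.80 to -2.22. Igfals, the subunit that stabilises IGF1 in blood, fell by 1.92 ± 0.22, adjusted p = 7.24e-07. Egfr, a receptor whose liver level is known to follow this axis, fell by 1.77 ± 0.30, adjusted p = 6.52e-05 with overlap between the groups. The 5 other Egfr probes were all called lower, at -3.05 to -2.34. Of the 18 tested genes of the axis 8 fell and 5 rose, at a median of -0.47. The median was -0.24 with quantile normalization, and after normexp 4 were lower and 4 higher.

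Cytochrome P450 and conjugation enzymes were lower in 23 of 31 unsaturated cases and higher in 4 (median -1.19). Sult2a8, a sulfotransferase of bile acids, ran from 5.34 to 6.04 in wild-type and from -0.38 to 1.90 in knockout mice, a 29.7-fold fall (-4.89 ± 0.31, adjusted p = 5.68e-10). Ugt2b1, a glucuronosyltransferase, fell by 4.40 ± 0.32, adjusted p = 3.69e-09, and Cyp1a2, which oxidises caffeine and aromatic amines, fell by 2.70 ± 0.23, adjusted p = 2.33e-08. Sult1a1, a phenol sulfotransferase, rose by 1.54 ± 0.15, adjusted p = 1.08e-07.

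Macrophage genes rose almost without exception. Of 33 shared macrophage and myeloid genes 32 were higher, beside 25% of all genes, and none was lower; the median was 2.76. In 31 of 33 every knockout mouse lay above every wild-type mouse. Clec4d, a C-type lectin receptor of myeloid cells, had levels of -3.23, -4.50, -4.06, -3.66 and -4.67 in wild-type and 2.28, 2.71, 2.81, 1.65 and 2.06 in knockout mice. The difference was 6.33 ± 0.45, adjusted p = 2.5e-09, and that of Cd14, a coreceptor for endotoxin, was 5.29 ± 0.48, adjusted p = 3.89e-08.

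Genes of lipid-laden macrophages, which collect in fatty tissue and in the diseased liver, were higher in 20 of 25 unsaturated cases, at a median of 2.37. Gpnmb, a transmembrane glycoprotein of such cells, had the widest gap of the genes named here. It lay at -5.31, -6.52, -7.37, -3.80 and -7.01 in wild-type mice, above background on 1 of 5 arrays, and at 5.45, 5.53, 5.72, 5.32 and 5.28 in knockout mice. The Gpnmb difference was 11.46 ± 0.87, adjusted p = 4.86e-09, and a second probe gave 5.51. Itgax, the integrin CD11c, went from -3.92 ± 0.73 to 3.67 ± 0.28 (SD, n = 5 each; adjusted p = 4.5e-10), with 2.17 from a second probe. Mmp12, the macrophage elastase, was at least 86.0-fold higher (mean level -6.71 ± 0.71 and 1.26 ± 0.29, adjusted p = 1.92e-09). Atp6v0d2, a subunit of the proton pump in macrophages and osteoclasts, was at least 31.7-fold higher (mean level -6.79 ± 0.31 and -0.18 ± 0.36, adjusted p = 8.32e-12).

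The identity genes of Kupffer cells, the resident macrophages of liver, moved against this. On their list 10 of 19 were lower and 4 higher. Clec4f, a lectin found in mouse liver on Kupffer cells, had levels of 4.76, 4.21, 3.13, 3.66 and 2.76 in wild-type and of -2.68, -2.87, -6.78, -4.46 and -5.18 in knockout mice. This fall was 274-fold (-8.10 ± 0.84, adjusted p = 2.05e-07). Under normexp the Clec4f difference was smaller, at -5.17. Cd5l, a secreted inhibitor of macrophage apoptosis and itself an LXR target, went from 6.0, 5.49, 3.91, 5.40 and 3.90 to -3.92, -3.24, -3.66, -3.57 and -3.68, a difference of -8.56 ± 0.38, adjusted p = 7.82e-12. Cd163, the haemoglobin scavenger receptor, fell by 4.65 ± 0.51, adjusted p = 4.54e-07 and Vsig4, a complement receptor, fell by 3.56 ± 0.83, adjusted p = 0.00124. Among the 4 that rose are genes that other cells also make: Vcam1, an adhesion molecule of endothelium, rose by 3.84 ± 0.31, adjusted p = 9.83e-09 and Hmox1, which breaks down haem, by 1.69 ± 0.32, adjusted p = 0.000197. Cd5l, Clec4f and Cd163 were already lower on chow, by -6.61, adjusted p = 1.12e-09, -3.88, adjusted p = 0.00291 and -5.30, adjusted p = 1.26e-06. The difference between diets was called for Cd5l (-1.95, adjusted p = 0.0114) and Clec4f (-4.22, adjusted p = 0.0124) but not for Cd163 (0.65, adjusted p = 0.572).

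Lysosomal genes were higher in 28 of 44 cases and lower in 4, with a median of 0.76. Ctsk, a collagen-degrading cathepsin, rose from -5.21, -4.42, -5.55, -5.21 and -5.27, above background on 1 of 5 arrays, to 2.16, 2.48, 2.46, 1.46 and 2.23 (difference 7.29 ± 0.39, adjusted p = 6.89e-11). Cd63, a tetraspanin of late endosomes, ran from 0.02 to 1.33 in wild-type and from 5.87 to 6.41 in knockout mice (5.36 ± 0.26, adjusted p = 2.61e-11). Ctss, the cathepsin that trims the invariant chain of MHC class II, rose 17.3-fold (4.11 ± 0.38, adjusted p = 8.07e-08). Gaa, the glucosidase that degrades glycogen in lysosomes, fell by 1.06 ± 0.12, adjusted p = 4.42e-07.

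**Figure D3:**
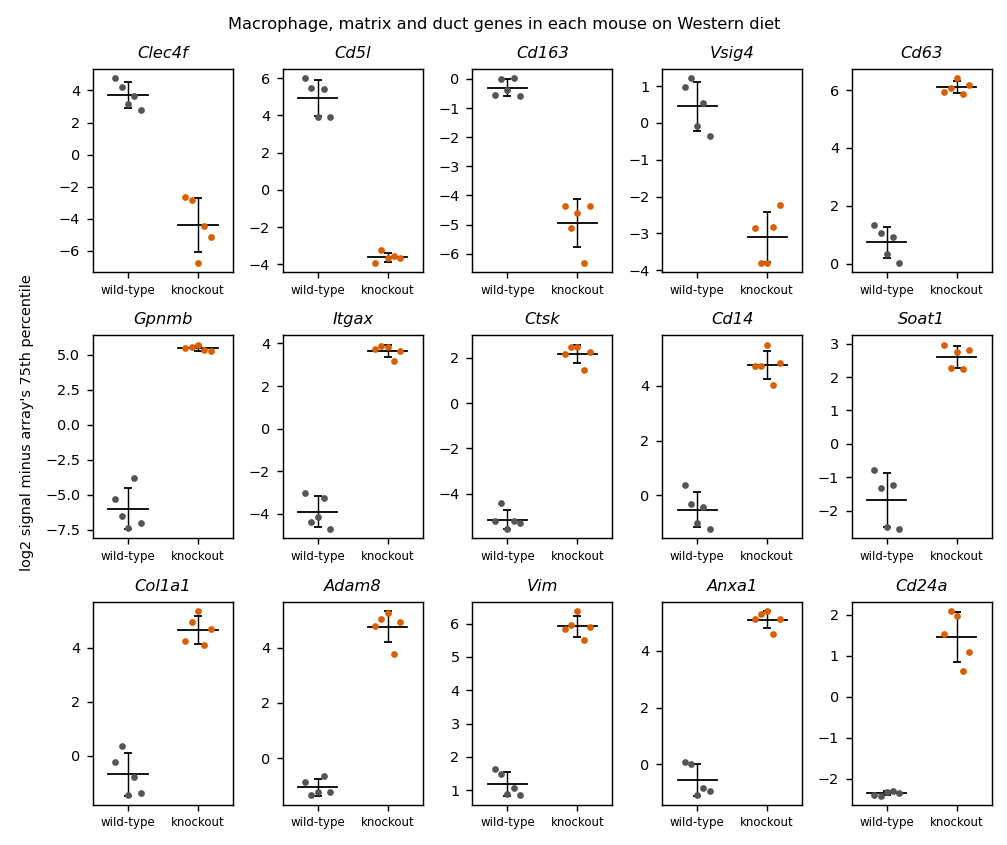
Levels of 15 macrophage, matrix and duct genes in each mouse on Western diet (log2 signal minus the array's 75th percentile, vertical axes), with 5 wild-type mice in grey and 5 knockout mice in orange; lines are means and bars SD. The groups do not overlap in any panel, and Clec4f, Cd5l, Cd163 and Vsig4, which mark Kupffer cells, are the 4 genes that are lower in the knockout.

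Chemokine and inflammatory genes rose together with the macrophage genes. Of 26 chemokines and receptors 20 were higher and 1 was lower (median 2.31). Ccl2, which draws monocytes, had levels of 0.01, -1.91, -2.98, -1.86 and -2.68 in wild-type and 3.13, 4.05, 4.33, 2.96 and 4.35 in knockout mice. Wild-type mouse 1 was the highest of its group and still lay below every knockout mouse (difference 5.65 ± 0.62, adjusted p = 3.82e-07). Ccl3 rose by 4.68 ± 0.58, adjusted p = 1.86e-06, a call lost under normexp (0.79, adjusted p = 0.215). Ccl24, an eosinophil attractant on the Kupffer cell list, was the one lower member (-1.59 ± 0.46, adjusted p = 0.00584), with overlapping groups and no call under normexp (-0.78, adjusted p = 0.131).

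Of 33 cytokine, inflammasome and Toll-like receptor genes 26 rose and 1 fell, at a median of 2.46. Il1rn, the interleukin-1 receptor antagonist, rose by 5.03 ± 0.73, adjusted p = 1.13e-05 and Tlr1 by 5.12 ± 0.48, adjusted p = 5.79e-08. Tlr9, which senses unmethylated DNA, was the member that fell, from 4.61, 4.55, 4.67, 4.71 and 4.61 to 3.23, 3.03, 2.96, 3.68 and 2.39 (difference -1.57 ± 0.18, adjusted p = 6.37e-07).

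Neutrophil markers were higher in 11 of 12 cases (median 2.68), while on chow limma called none of the 12 (2 at an unadjusted p under 0.05). Lcn2, an iron-binding protein of neutrophils that hepatocytes also make in the acute phase, had wild-type levels of -0.13, -2.63, -3.56, -1.35 and -4.39 and 4 knockout values of 5.01, 6.07, 5.19 and 5.42. The difference was 7.84 ± 1.17, adjusted p = 1.92e-05. Mmp8, the neutrophil collagenase, rose by 4.87 ± 0.54, adjusted p = 4.89e-07. After normexp 4 neutrophil markers were called, and Mmp8 was not among them (1.07, adjusted p = 0.105). Antigen presentation by MHC class II rose as a list, with 11 of 13 genes higher and none lower. Cd74, its invariant chain, went from 1.76 ± 0.45 to 4.14 ± 0.50 (SD, n = 5 each; adjusted p = 0.000111), and Cd83, an activation marker of antigen-presenting cells, rose by 3.75 ± 0.46, adjusted p = 1.8e-06.

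Lymphocyte markers showed no common direction, with 6 of 21 higher and 4 lower, beside 25% and 32.7% of all tested genes. Jchain, the joining chain of plasma cell antibodies, had levels of -0.95, -1.73, -1.89, -2.01 and -2.12 in wild-type and 2.77, 1.77, 1.51, -1.10 and 0.43 in knockout mice, of which mouse 4 lay within the wild-type range (difference 2.82 ± 0.61, adjusted p = 0.00065). Cd22, a B cell inhibitory receptor, was higher (2.82 ± 0.27, adjusted p = 9.96e-08), and Ms4a1, the B cell antigen CD20, lower with overlapping groups (-0.98 ± 0.28, adjusted p = 0.00584). Neither of these calls holds under normexp (Cd22 0.83, adjusted p = 0.116; Ms4a1 -0.55, adjusted p = 0.322). Interferon-stimulated genes were called in 4 of 25 cases, all lower, at a median of 0.05. The list level of 1 wild-type animal, mouse 1, was 2.03 above the wild-type mean. Without that mouse 7 genes were higher and 2 lower, at a median of 0.42, and without wild-type mouse 3 none was higher and 7 were lower, at a median of -0.33, so no direction is given for the list. Bst2, the antiviral protein tetherin, differed by -1.56 ± 0.25, adjusted p = 3.38e-05, with 2 wild-type spots saturated.

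Genes of the extracellular matrix rose strongly. Of 34 collagens and other matrix proteins 29 were higher and 2 lower, with a median of 2.56. Col1a1, a chain of the main collagen of scar tissue, had levels of -0.23, 0.38, -1.47, -0.78 and -1.38 in wild-type mice. In the knockout mice Col1a1 stood at 4.24, 4.95, 5.37, 4.11 and 4.68, a 41.2-fold rise without overlap (5.36 ± 0.47, adjusted p = 2.81e-08), and its 2 other probes differed by 5.04 and 3.04. Loxl2, which crosslinks collagen, rose by 4.43 ± 0.33, adjusted p = 3.65e-09. Col5a3 fell instead, from 3.47 ± 0.10 to 0.48 ± 0.35 (SD, n = 5 each; adjusted p = 1.09e-07), and its other probe differed by -2.92.

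Matrix proteases and their inhibitors had the highest median of any list, 3.46, or 3.22 with 5 dim genes at their bounds, and 22 of 24 rose. That rank depends on the processing. After normexp the median was 1.42, with 14 genes called higher, and in the values matrix deposited by the authors it was 1.97. The shared macrophage genes then had higher medians, 2.15 and 2.40. Adam8, a membrane protease of myeloid cells, had levels of -0.85, -1.34, -1.22, -0.64 and -1.21 in wild-type and 4.79, 5.02, 5.26, 3.78 and 4.93 in knockout mice (difference 5.81 ± 0.35, adjusted p = 2.82e-10). Mmp7, a protease made by injured bile duct epithelium, was at least 117-fold higher (mean level -5.16 ± 0.39 and 1.88 ± 1.21, adjusted p = 1.4e-08). On chow 3 of 24 of these genes were called, all higher, at a median of 0.31. This count is near the 11.3% of all genes called higher on chow.

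Stellate cells produce much of the matrix in injured liver. Of 25 stellate cell and myofibroblast genes 18 rose and 1 fell (median 1.49). Vim, vimentin, read 1.64, 1.48, 0.90, 1.08 and 0.86 in wild-type and 5.83, 5.97, 6.38, 5.52 and 5.88 in knockout mice, a difference of 4.72 ± 0.22, adjusted p = 1.56e-11. Ccn2, connective tissue growth factor, rose by 2.94 ± 0.26, adjusted p = 3.21e-08. Ngfr, the neurotrophin receptor p75, fell by 1.66 ± 0.24, adjusted p = 1.01e-05, or by 1.05 at its other probe. Vim is also made by macrophages and endothelium, and how much each cell type adds was not tested.

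Bile duct and progenitor genes rose in 13 of 20 cases and fell in 4. Cd24a, a surface protein of progenitor and many other cells, was tightly held at -2.41, -2.41, -2.33, -2.30 and -2.35 in wild-type mice. Its knockout levels were 1.52, 2.10, 1.97, 0.63 and 1.10 (difference 3.82 ± 0.24, adjusted p = 5.26e-10). Cftr, the chloride channel of duct cells, was at least 6.56-fold higher (mean level -6.86 ± 0.28 and -2.45 ± 0.88, adjusted p = 1.63e-09), a call that normexp does not keep (0.35, adjusted p = 0.601). Tff3, a mucosal peptide, fell by 3.64 ± 0.60, adjusted p = 4.48e-05. Endothelial genes showed no shift as a list, with 5 of 25 higher and 5 lower, beside 25% and 32.7% of all tested genes. Within it Vwf and Cd34, which in liver mark vessels other than the sinusoids, rose by 2.19 and 2.52. Dnase1l3, a nuclease of sinusoidal cells and macrophages, fell by 2.03 ± 0.30, adjusted p = 1.32e-05. These are single members of a list in which 15 genes were not called, and a shift between vessel types was not tested.

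S100 proteins and annexins, calcium-binding proteins of many non-hepatocyte cells, were higher in 16 of 22 cases and lower in none. Anxa1, a mediator of the resolution of inflammation, had levels of 0.09, 0.00, -1.08, -0.83 and -0.93 in wild-type and 5.13, 5.29, 5.39, 4.59 and 5.14 in knockout mice. Its difference was 5.66 ± 0.25, adjusted p = 7.31e-12. S100a4 and S100a6 rose by 5.88 and 5.05. Capg, an actin-capping protein on the cytoskeleton list, rose by 5.66 ± 0.38, adjusted p = 1.34e-09, and 19 of 25 genes of that list were higher.

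Stress and antioxidant genes went both ways. Slc7a11, the cystine importer, was at least 7.51-fold higher (mean level -7.30 ± 0.07 and -2.26 ± 0.13, adjusted p = 5.86e-14). The wild-type values, -7.36 to -7.18, were below background on every wild-type array, so their narrow range does not measure a spread between mice. The knockout values were -2.45 to -2.15, and the call is lost under normexp (0.46, adjusted p = 0.504). The 2 other Slc7a11 probes differed by 3.06 and 3.53. Gpx3, a secreted glutathione peroxidase, rose by 4.75 ± 0.41, adjusted p = 2.42e-08, while Cat, the peroxisomal catalase, fell by 1.81 ± 0.20, adjusted p = 6.98e-07. Of 22 unsaturated antioxidant genes 10 rose and 8 fell, and of the full list 11 were higher and 3 lower with quantile normalization. The metallothioneins Mt1 and Mt2, close copies that bind zinc and copper, rose by 5.15 ± 0.82, adjusted p = 3.29e-05 and 6.79 ± 0.96, adjusted p = 9.1e-06. Atf3, a stress-induced transcription factor, rose by 4.52 ± 0.47, adjusted p = 2.08e-07 and Asns, asparagine synthetase, by 2.85 ± 0.37, adjusted p = 3.49e-06. On the list of the unfolded protein response 8 of 23 were lower, near the share of all tested genes, and 3 higher. Quantile normalization gave 5 lower and 4 higher, and normexp none lower and 3 higher. Xbp1 differed by -0.80 and Dnajc3 by -0.80, and neither was called under normexp (adjusted p = 0.0908 and 0.0718). Other Dnajc3 probes differed by -1.07 to -0.11.

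Cell cycle genes rose on both diets. Of 24 mitosis genes 18 were higher on Western diet (median 1.5) and 23 on chow (median 2.14), and limma called a difference between the diets for none of them (2 at an unadjusted p under 0.05). Mki67, a marker of cycling cells, had levels of -0.62, -0.63, -2.76, -0.41 and -1.31 in wild-type and 1.33, 1.95, 1.60, 1.08 and 1.14 in knockout mice, and wild-type mouse 3 was the lowest (difference 2.57 ± 0.40, adjusted p = 2.78e-05). Mcm2, a subunit of the replicative helicase, rose by 2.35 ± 0.34, adjusted p = 1.22e-05. After normexp 4 mitosis genes were called. Mcm10, another replication factor, fell from 4.14, 3.81, 5.68, 5.53 and 4.94 to 1.61, 0.27, 0.08, 2.27 and 0.10 (difference -3.96 ± 0.47, adjusted p = 1.02e-06). Cdkn1c, an inhibitor of cyclin-dependent kinases, rose by 3.21 ± 0.25, adjusted p = 7.06e-09. Glul, the glutamine synthetase of hepatocytes around the central vein, fell by 2.67 ± 0.23, adjusted p = 2.7e-08 (its 2 other probes differed by -3.59 and -1.27), and Alas2, a haem synthesis enzyme best known from red cells, fell by 3.33 ± 0.26, adjusted p = 6.64e-09.

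A few genes showed near all-or-none differences on both diets. Dct, a pigment enzyme, read 0.21, 0.04, 0.13, 1.5 and 0.48 in wild-type mice and was below background in all knockout mice, at least 62.5-fold lower (mean level 0.47 ± 0.60 and -7.78 ± 0.35, adjusted p = 4.73e-12). It differed by -9.92 on chow. Ifi202b, an interferon-inducible gene known to vary between inbred strains, was below background in all wild-type mice and at 1.40, 1.26, 1.37, 1.22 and 1.71 in the knockout, at least 94.4-fold higher (mean level -7.26 ± 0.14 and 1.39 ± 0.19, adjusted p = 5.86e-14). On chow Ifi202b differed by 6.77. The mice were of mixed strain, and strain-derived segments that travelled with a genotype cannot be told apart from an effect of the receptors. Around the deleted genes, 35.4% of 96 tested genes within 5 Mb of the Nr1h3 probe (mm8 chr2:90985117-90985176) were called and 52.3% of 153 around the Nr1h2 probe (mm8 chr7:44417972-44418031), beside 57.7% of all genes. Genes called on both diets made up 7.29% and 20.9% of these neighbours, beside 15.4% of all genes. Emp3, a membrane protein, and E2f8, a repressor of cell cycle genes, are neighbours of Nr1h2 that were called on both diets. Emp3 rose by 4.44 ± 0.34, adjusted p = 5.03e-09. E2f8 fell by 6.46 ± 0.51, adjusted p = 8.37e-09 at its brightest probe, but a second probe differed by -0.10 and was not called.

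Further lists add smaller counts, to be read beside the 25% higher and 32.7% lower of all tested genes. Acute phase genes were higher in 8 of 20 unsaturated cases and lower in 3. Nuclear receptors and their coregulators were lower in 20 of 37, both deleted receptors among them, and higher in 8, or in 7 and 6 after normexp. Genes of DNA replication rose in 19 of 27 cases and fell in 3, cell cycle control genes rose in 13 of 24 and fell in 1, and fetal liver and liver tumour genes rose in 11 of 16 and fell in 2. Clock genes (6 higher and 5 lower of 19) and unsaturated metal-handling genes (5 higher and 9 lower of 20) were mixed, and these counts are no result about the lists. Of markers of tissue that could adhere to a liver piece, mesothelial, pancreatic and adipose, 8 of 16 passed the filter, 2 were higher and 1 lower. Of 4 red cell genes that passed, 1 was higher and 1 lower. In both of these small lists 25% were higher, the share of all tested genes, so their counts are no result either.

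The genotype difference on chow, from 10 other mice, shows which part of this pattern depends on the diet. On chow 3460 of 17547 tested genes (19.7%) were called, against 57.7% on Western diet. A total of 2694 genes were called in the same direction on both diets, which is 26.6% of the calls on Western diet and 77.9% of those on chow. The difference between the diets was called for 4839 of 17540 genes (27.6%), 2259 of them more positive on Western diet and 2580 more negative.

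Among the lipid genes, Srebf1 differed by -0.67, adjusted p = 0.0485 on chow and more on Western diet (difference between diets -2.67, adjusted p = 1.58e-05). Abcg8 was not called on chow (-0.02, adjusted p = 0.97), and the diets differed by -3.59, adjusted p = 8.22e-06. Scd1 was lower on both, by -3.46 on chow (difference between diets -2.85, adjusted p = 0.00229). The male-biased list was lower in 4 of 19 genes on chow (median -0.35), and 18 were more negative on Western diet.

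The collagen list had a median of 0.55 on chow and was more positive on Western diet in 26 of its 34 genes, beside 12.9% of all genes. Of the shared macrophage genes 21 of 33 were already higher on chow, and 16 were more positive on Western diet. For Col1a1 the chow difference was 0.93, adjusted p = 0.178, and for Adam8 it was 0.76, adjusted p = 0.136. For both the difference between the diets was called (Col1a1 4.43, adjusted p = 9.63e-05; Adam8 5.05, adjusted p = 1.29e-06).

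**Figure D4:**
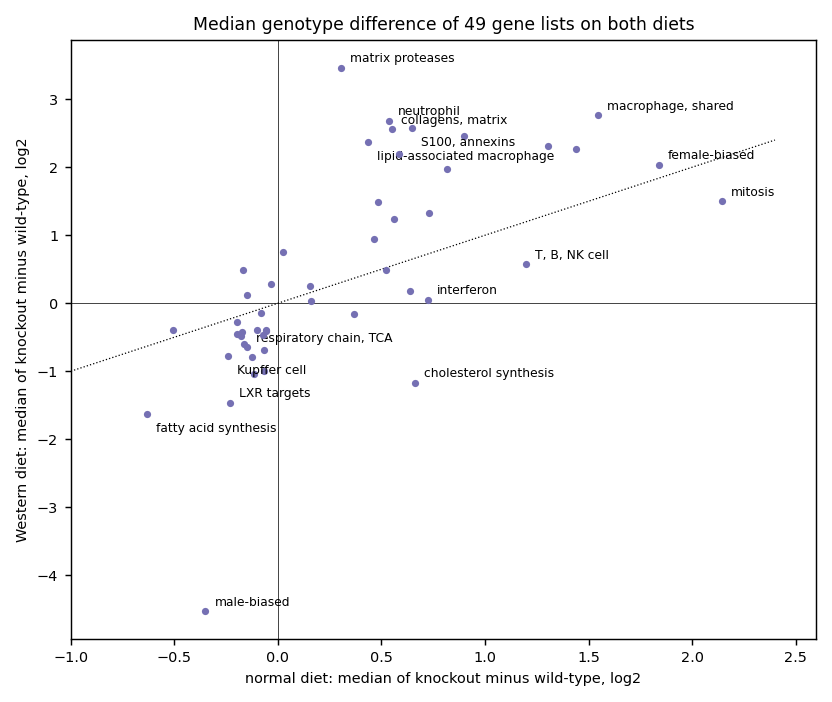
Median genotype difference (knockout minus wild-type, log2) of each of 49 gene lists on normal diet (horizontal axis) and on Western diet (vertical axis), 1 point a list; the dotted line marks equal medians. Cholesterol synthesis lies at 0.66 on normal and -1.17 on Western diet, and matrix proteases at 0.31 and 3.46.

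The 5 knockout mice shared the pattern but not its depth. The level of a list in a mouse was taken as the median over its genes of the distance from the wild-type mean. Male-biased genes lay between -4.81 and -3.81 in the knockout mice, and matrix proteases between 2.50 and 4.24. Collagens ranged from 1.88 to 2.91 and macrophage genes only from 2.72 to 3.05. In the wild-type mice the same lists stayed within -0.65 and 0.69. Knockout mouse 4 had the lowest matrix, collagen and inflammation levels of its group, and the number of genes at least 2-fold lower was 2379 without that mouse and 1995 with it.

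**Figure D5:**
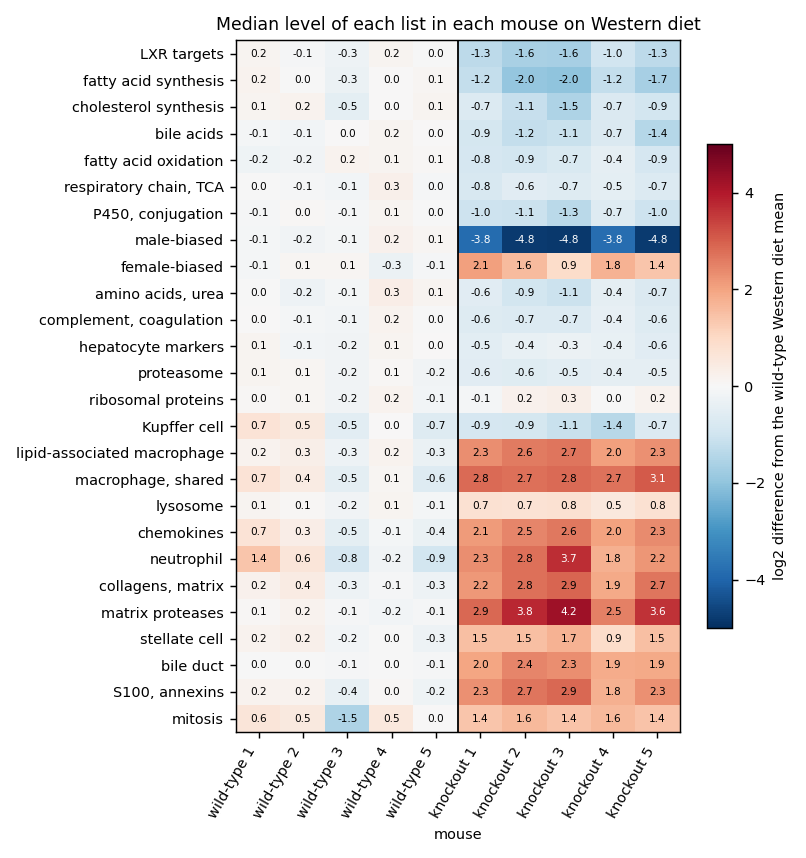
Level of 26 gene lists (vertical axis) in each of the 10 mice on Western diet (horizontal axis), as the median over a list's genes of the log2 distance from the wild-type Western diet mean; red is higher and blue is lower, and the value is written in each cell. The 5 knockout columns carry the same sign for the male-biased, fatty acid synthesis, macrophage and collagen lists.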

How the data were processed

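Each of 20 livers gave 1 single-colour Agilent array. Per the file headers, the deposited intensity values (processed signal) came from Feature Extraction 9.5.3.1, which subtracts background; per the submitters' processing notes, Feature Extraction 9.5 and limma were used. Here log2 values were computed from the deposited processed signal, minus each array's 75th percentile. The values matrix deposited by the authors, taken as an alternative, is on a log2 scale with array medians of 7.734 to 7.783; its normalization is not given in the sources used here, and it holds signals, so no ratio direction arises. Control spots and 105 to 270 outlier spots per array were left out. Each gene was represented by its brightest probe, provided that some group had 4 or 5 arrays with a signal well above background. Of 41174 probes 23374 were named by accession, 6733 by symbol and 2919 by synonym in the RefSeq GRCm38.p6 table, and 8148 kept the name in the files. Probe positions are mm8, per the file headers.

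limma 3.58.1 (R 4.3.3) fitted the 4 group means over 20 arrays (16 residual degrees of freedom), with Benjamini-Hochberg adjustment over all genes tested. Where a group was below background on all 5 arrays, a fold is the brighter group's mean against the higher of the dim probe's own signal and the lowest signal well above background, as "at least". The 5 arrays of a group limit the precision. The steps were tested on simulated data. Genes named are the 2 receptors and 13 fixed lipid genes, the 10 most raised and 10 most lowered, up to 4 per list in its main direction and 2 in the other, up to 3 near each deleted gene, and listed genes that did not pass; Alb, Fgb, Ahsg and Cox6a1 (saturated) and Prrg4 (a promoter match) were chosen after values were seen. Some genes that this rule names are not reported here. The genes and 49 lists were chosen with earlier results of these data known. Replicate numbers did not pair the mice: same-numbered knockout and wild-type mice deviated together at r of 0.268, 0.112, 0.092, -0.348 and -0.138. Arrays on a shared slide correlated at 0.188 to 0.431, and 4 slides held both groups.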

Additional observations from a re-analysis of the deposited data

Results flagged for a closer look

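Of 364 sets of 5 values examined, 15 held 1 mouse far from the other four by Dixon's criterion of 0.71, and chance gives about 1 in 20. Among genes these were Abca1 in wild-type mouse 2 (low, level 3.56), Tm7sf2 in wild-type mouse 5 (high, 5.04), Ttr in wild-type mouse 2 (low, 4.21), Klkb1 in wild-type mouse 5 (high, 4.16), C9 in knockout mouse 4 (high, 2.37), Gpx3 in knockout mouse 4 (low, 0.17), Ctss in knockout mouse 3 (high, 7.41) and Elovl3 in knockout mouse 1 (high, 1.31). Among list levels, relative to the wild-type mean, they were cholesterol synthesis in wild-type mouse 3 (low, -0.47), mitosis in wild-type mouse 3 (low, -1.54), lipid droplets and red cell genes in wild-type mouse 4 (high, 0.27 and 0.36), and complement, lysosome and inflammation in knockout mouse 4 (-0.40, high; 0.53 and 2.04, low). Knockout mouse 4 holds 5 of the 15, each toward the wild-type side.

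The genotype difference on Western diet differed from that on chow, by the difference of differences in the fit, for 4839 genes. Among the lipid genes and those that were called in opposite directions, it was -2.67 for Srebf1, -2.85 for Scd1, -2.65 for Fasn, -2.69 for Abcg5, -3.59 for Abcg8, -0.53 for Abca1, -1.03 for Lpcat3, -3.73 for Cyp51, -3.50 for Cyp3a16 and -2.18 for Ms4a1. Cyp51, Cyp3a16 and Ms4a1 were higher in the knockout on chow (1.18, 1.88 and 1.20) and lower on Western diet (-2.54, -1.62 and -0.98). All of these are genotype differences on 2 diets with separate mice.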

How the results depend on the processing

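The counts of called genes kept within 1.5 times of the values given under median scaling (3517 higher, 5647 lower), quantile normalization (4904 and 5173), other filters, probe rules, moderation and the slide block (4477 and 6449). The exceptions were normexp, with 1971 higher, 2331 lower, 1135 and 725 at least 2-fold higher and lower, and 1014 genes that differed between the diets; the deposited matrix, with 1669 and 947 at least 2-fold higher and lower; and median scaling, with 3065 genes that differed between the diets. The cause was not tested. The median of all differences was -0.16, -0.25 with median scaling, -0.08 with quantile normalization and -0.23 after normexp. Leaving out 1 mouse in turn gave 4095 to 4447 higher, 5313 to 5921 lower, and 2735 to 2958 and 1824 to 2379 at least 2-fold apart. Between the diets 3984 to 5234 genes then differed, and 92.2 to 96.8% of the calls were made again. Under normexp only 42.2% of the calls were made again, and with median scaling 85.6%. When probes were averaged, 93.7% were made again and 39 genes were called in the opposite direction.

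With the replicate number as a block, which does not pair these mice, 4357 genes were higher and 5692 lower, 2870 and 1994 by at least 2-fold, and 4754 differed between the diets. Within the 4 slides that held both groups, 89.8% of called genes differed in the direction of the call on every slide. These differences use arrays that also made the calls, so a high share is largely given in advance and is no separate test.

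Of 136 genes named with a test, 133 were called, and none of these 133 reversed under any setting run. Lpl, which was not called, changed sign with quantile normalization (0.02) and in the deposited matrix (0.04). Under normexp 13 lost the call and 42 moved by over 1.5 times; with the deposited matrix 21 moved so far. A second probe moved Sdha (-0.55), Cyp4a10 (-2.82), Itgax (4.88) and E2f8 (-3.28) when probes were averaged, and quantile normalization gave 1.02 for Gpt and -0.57 for Asgr2. Calls with a bound, and 515 genes called higher whose wild-type signal was at background on every array, are limited by signal over background.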

Other observations

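Of 2818 genes called on both diets, 48 were higher on Western diet and lower on chow, and 76 were the reverse. Where a gene had more than 1 called probe, 249 of 3141 genes had called probes that disagreed in sign, so a single probe does not always speak for its gene.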
